A study of Mus musculus with 10 samples.

Results

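The 6 genes followed here mark endothelial tip cells and continuous capillaries, and their levels were measured in mouse liver after VEGF gene transfer: Esm1, Cd34, Emcn, Plvap, Apln and Aplnr. They were taken by gene symbol, and each had 1 row among the 24011 rows with a symbol in the deposited expression table. They were chosen by their difference in RPKM between the groups in these same samples, so that their difference between the groups is described below without a test. The samples were livers of 10 male C57BL/6 mice, 8 to 12 weeks old, that had received an adenovirus (serotype 5) into the tail vein. Of these, 5 were given AdVEGF, which carries VEGF-A165 under the CMV promoter, and 5 were given AdCMV, the empty vector with that promoter and no transgene, so both groups had carried viral particles when the livers were collected on day 6. The CMV promoter is not restricted to 1 cell type, and whole perfused liver was sequenced as ribosomal RNA-depleted total RNA, 1 library per mouse.

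In sprouting angiogenesis, VEGF selects leading endothelial cells, the tip cells, which extend filopodia toward the growth factor, while the stalk cells behind them form the vessel wall. Esm1, Apln and Cd34 are genes known from tip cells. The endothelium of the liver sinusoid differs from that of most capillaries: it has open pores without diaphragms, no organized basement membrane, and little CD34. Continuous and diaphragmed capillaries carry CD34, endomucin (the product of Emcn) or PLVAP on their surface, and a sinusoid that takes on such features is said to be capillarized.

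The values are RPKM, that is reads scaled to the length of the transcript and to the mapped tags of the library, and can be compared between genes. At least 99.9% of the values in each library were whole numbers of reads, which gave 5596564 to 13494005 mapped tags per mouse. The major urinary protein genes of hepatocytes took between 7.84% and 50.5% of the reads of a library. AdCMV replicate 3 stood apart with 18.0%, the lowest share of its group (the others had 32.4% to 50.5%), against 7.84% to 28.6% in the AdVEGF group. RPKM is a share of the library, and across the 13933 genes tested the median shift was 0.38 (log2) toward AdVEGF, so a second value after median-ratio scaling (median -0.011) is given where it matters. The liver label was borne out by 8 hepatocyte markers, albumin (Alb) among them, whose summed RPKM was 16705 to 21354 in the AdCMV and 29903 to 37298 in the AdVEGF mice. Alb was the largest part of that sum, with mean RPKM of 7716 and 16667. Of the 8 markers, 2 were called higher in the fit described below, and 0 after median-ratio scaling. For Vegfa the mean RPKM was 18.1 ± 3.49 with AdCMV and 31.8 ± 4.65 with AdVEGF (SD, n = 5 each), which is 0.82 on the log2 scale (limma adjusted p = 0.00487) and under the fold threshold. The table lists mouse transcripts only.

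The promoters are shown first, because the sequence next to the start sites was not used in choosing the genes. The shared direction of the 6 genes was the ground for choosing them. RefSeq start sites (GRCm38.p6) were found for 4 of the 6 genes, and the 250 bases before each start are given 5′ to 3′ on the strand of the gene. Capitals mark AGGAAG or its reverse complement, a core of the sites bound by ETS factors, a family that includes endothelial regulators such as ERG and FLI1. The windows are chr13:113209409-113209658 (plus strand), chr1:194938571-194938820 (plus strand), chr3:137340828-137341077 (plus strand) and chrX:48034854-48035103 (minus strand).
Esm1 promoter: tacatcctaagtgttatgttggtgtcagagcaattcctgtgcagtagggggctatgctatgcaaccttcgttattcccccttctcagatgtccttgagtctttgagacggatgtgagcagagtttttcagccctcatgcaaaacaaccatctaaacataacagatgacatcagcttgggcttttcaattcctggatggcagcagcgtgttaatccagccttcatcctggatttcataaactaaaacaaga
Cd34 promoter: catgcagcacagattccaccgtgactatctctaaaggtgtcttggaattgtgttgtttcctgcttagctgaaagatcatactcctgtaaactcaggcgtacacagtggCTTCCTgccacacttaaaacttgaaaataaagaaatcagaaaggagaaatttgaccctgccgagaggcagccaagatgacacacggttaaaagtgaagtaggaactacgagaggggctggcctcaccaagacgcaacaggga
Emcn promoter: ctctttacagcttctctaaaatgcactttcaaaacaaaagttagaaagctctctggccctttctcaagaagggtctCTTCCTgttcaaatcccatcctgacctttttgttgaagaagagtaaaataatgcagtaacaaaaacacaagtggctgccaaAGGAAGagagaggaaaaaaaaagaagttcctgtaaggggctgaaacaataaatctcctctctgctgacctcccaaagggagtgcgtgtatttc
Apln promoter: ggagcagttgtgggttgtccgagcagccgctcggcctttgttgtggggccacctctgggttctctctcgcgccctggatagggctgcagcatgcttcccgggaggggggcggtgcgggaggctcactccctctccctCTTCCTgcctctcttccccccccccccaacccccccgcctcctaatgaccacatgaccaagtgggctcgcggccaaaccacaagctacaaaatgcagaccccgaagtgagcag
AGGAAG stood in the Cd34, Emcn and Apln windows, 3 of 4, and 29.5% of all 32851 mouse promoter windows of this length hold it on either strand. In Cd34 it was on the minus strand at 142 to 137 bases before the start, and in Apln on the minus strand at 113 to 108 bases before it. Emcn had it on both strands, at 174 to 169 and at 93 to 88 bases before the start. The second ETS core, CGGAAG, was in 0 of the 4 windows (13.6% of all). Of the other letters searched, also on both strands, TGTTTA of the FOX factors was in the Esm1 window alone (12.03% of all). ACAATG of the SOX factors (10.7%), TGGGAA of the Notch partner RBPJ (21.6%), ACGTG of the hypoxia response (16.6%) and TATAAA (12.4%) were in 0 of the 4. These are matches of letters in a short window, and no binding was measured. The GC content was 44.0% for Esm1, 46.4% for Cd34, 40.8% for Emcn and 65.2% for Apln, against a median of 52.4% over all windows.

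Esm1 encodes endocan, a proteoglycan that endothelial cells secrete and a widely used tip cell marker (RefSeq NM_023612, chr13:113999867-114008312 in mm9, as in the table). Its RPKM was 0.132, 0.424, 0.363, 0.202 and 0.497 in AdCMV replicates 1 to 5, on 2 to 12 reads per mouse. In AdVEGF replicates 1 to 5 it was 53.5, 50.1, 63.5, 60.1 and 54.0, on 630 to 1025 reads. The groups lay far apart, with the lowest AdVEGF mouse 101-fold above the highest AdCMV mouse. The group means were 0.324 ± 0.153 and 56.2 ± 5.43 (SD, n = 5 each), a ratio of 174, or 136 after median-ratio scaling. Among the genes tested Esm1 went from the 3.69 percentile of RPKM in the AdCMV group to the 91.1 percentile in the AdVEGF group, and its log2 fold change of 7.14 ranked 1 of 13933. This and every other log2 fold change is on the log2(RPKM + 0.1) scale, which understates changes of low values.

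Apelin, encoded by Apln, is a secreted peptide of tip cells, and its receptor Aplnr is a G protein-coupled receptor found on venous and sprouting endothelium. Apln (NM_013912, chrX:45378323-45388029 in mm9) had an RPKM of 0.176, 0.094, 0.363, 0.067 and 0.110 in AdCMV replicates 1 to 5, on 2 to 9 reads. It had 0.736, 0.728, 0.625, 3.36 and 0.662 in AdVEGF replicates 1 to 5, on 13, 17, 11, 86 and 14 reads. The groups did not overlap, but AdVEGF replicate 4 was several times higher than the 4 others, which differed little. The means were 0.162 ± 0.119 and 1.22 ± 1.20 (SD, n = 5 each), a ratio of 7.55, which was 4.25 without AdVEGF replicate 4 and 10.9 without AdCMV replicate 3. Aplnr (NM_011784, chr2:84976517-84980080 in mm9) had 0 reads in each of the 5 AdCMV mice. A count of 0 allows up to 3 reads, or 0.062 to 0.146 RPKM for this transcript. In AdVEGF replicates 1 to 5 its RPKM was 1.35, 1.40, 0.853, 1.59 and 0.668, on 27, 37, 17, 46 and 16 reads. The receptor transcript was thus read in every AdVEGF mouse, and the AdVEGF mean of 1.17 ± 0.391 (SD, n = 5) was at least 11.2-fold higher than the AdCMV mean that 3 reads per library would give. Ligand and receptor were of like abundance in the AdVEGF group: Apln was above Aplnr in 1 of the 5 mice, replicate 4. Intervals set by reads cover counting error only.

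Cd34 and Emcn encode heavily glycosylated surface proteins, CD34 and endomucin, that bind selectins or limit cell adhesion. Cd34 (NM_001111059, chr1:196765015-196787486 in mm9) had an RPKM of 0.317, 0.284, 0.778, 0.284 and 0.532 in AdCMV replicates 1 to 5, on 6 to 16 reads. In the AdVEGF mice it had 32.5, 26.9, 24.98, 27.7 and 34.7, on 365 to 610 reads. Every AdVEGF mouse was at least 32.1-fold above every AdCMV mouse. The means of 0.439 ± 0.216 and 29.4 ± 4.06 (SD, n = 5 each) gave a ratio of 66.9, or 54.6 after median-ratio scaling, and a log2 fold change of 5.84, the second largest of the genes tested. Emcn (NM_001163522, chr3:137004042-137094033 in mm9) had an RPKM of 0.859, 0.717, 2.19, 0.660 and 1.80 in AdCMV replicates 1 to 5. Its AdVEGF values were 48.5, 49.6, 48.8, 57.5 and 40.7. Replicates 3 and 5 were the highest AdCMV mice for both genes, but still at least 18.5-fold below the lowest AdVEGF mouse for Emcn. The Emcn means were 1.25 ± 0.703 and 49.0 ± 5.97 (SD, n = 5 each), a ratio of 39.3 and a log2 fold change of 5.33, rank 5 of 13933.

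Plvap encodes the protein that forms the diaphragms of fenestrae, caveolae and transendothelial channels. It was the only one of the 6 genes with a high level in the AdCMV group (NM_032398, chr8:74021652-74035668 in mm9). Its RPKM was 6.67, 10.1, 12.6, 6.76 and 12.3 in AdCMV replicates 1 to 5, on 97 to 273 reads. The AdVEGF mice had 29.6, 37.4, 36.5, 50.9 and 29.97, on 334 to 831 reads. The groups did not overlap here either, although the lowest AdVEGF mouse was only 2.34-fold above the highest AdCMV mouse. The means were 9.69 ± 2.88 and 36.9 ± 8.62 (SD, n = 5 each), a ratio of 3.81, or 2.95 after median-ratio scaling. Its log2 fold change of 1.94 ranked 634 of 13933, and that of Apln, 2.11, ranked 518. Aplnr ranked 40 with 3.61, a value set by the 0.1 added before the logarithm.

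**Figure D1:**
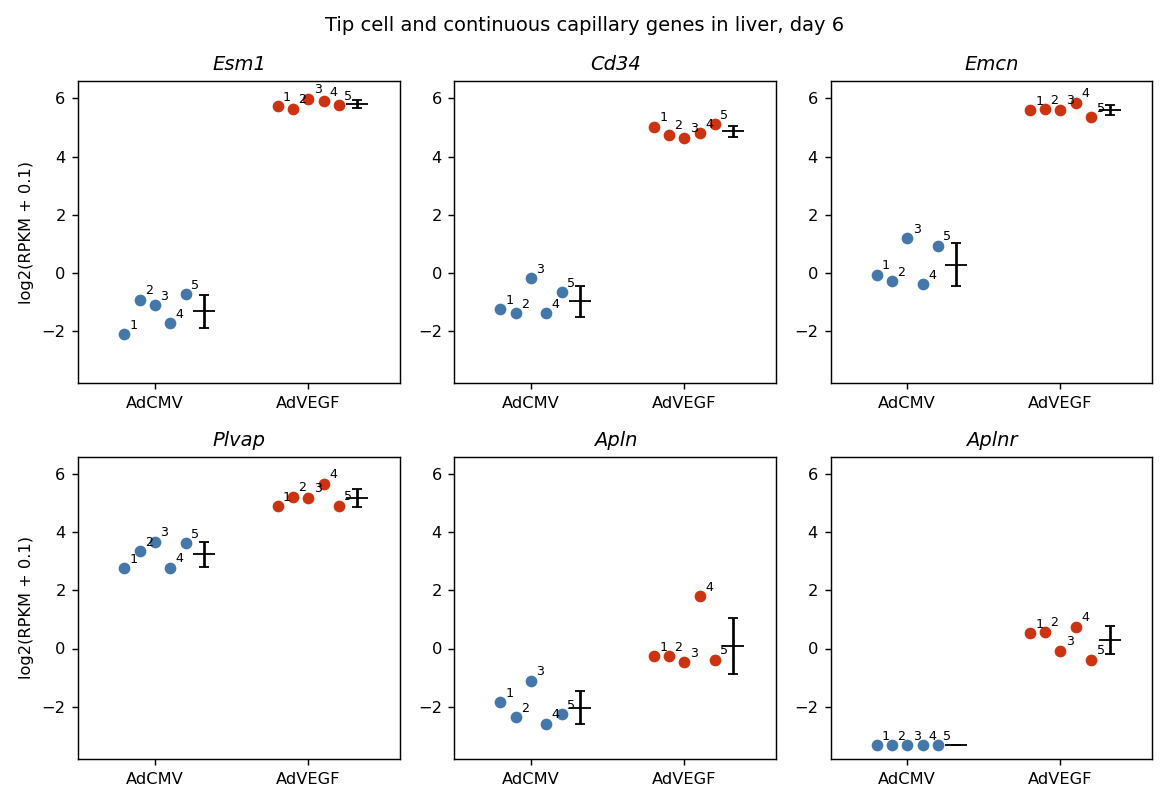
Level of each gene as log2(RPKM + 0.1) (y axis) in the 5 AdCMV and 5 AdVEGF mice (x axis), with 1 numbered point per mouse and the mean ± SD of the plotted values beside each group. The groups do not overlap for any of the 6 genes, Aplnr sits at 0 reads in every AdCMV mouse, and AdVEGF replicate 4 stands above the others for Apln.

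The AdVEGF group lay entirely above the AdCMV group for all 6 genes, the pattern for which they were chosen, and 14.3% of all genes tested had it. None of the 6 had all AdVEGF mice below the controls, which 1.29% of all genes had. All 6 passed the filter of 0.5 RPKM in 1 group, Esm1, Cd34, Apln and Aplnr only through the AdVEGF group. The order of levels differed between the groups. In the AdCMV mice Plvap was highest, above Emcn in each mouse with no overlap, followed by Cd34, Esm1 and Apln, whose ranges overlapped from 1 gene to the next, and by Aplnr at 0. In the AdVEGF mice Esm1 was highest and above Emcn in 5 of 5 mice, and Emcn was above Plvap in 5 of 5, although the ranges overlapped. Plvap and Cd34 could not be ordered, since Plvap was higher in only 3 of the 5 mice. Apln and Aplnr were far below these 4 genes and near the 12.8 and 12.1 percentiles of the genes tested. The relative spread between mice was smaller in the AdVEGF group for Esm1, Cd34 and Emcn: the coefficient of variation of Esm1 was 47.2% in the AdCMV and 9.65% in the AdVEGF group, that of Cd34 49.2% and 13.8%, and that of Emcn 56.4% and 12.2%. The AdCMV values rest on few reads. Plvap, which had many reads in both groups, varied by 29.8% and 23.4%.

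In whole liver, a larger number of endothelial cells and more RNA per endothelial cell cannot be told apart. The RPKM of each gene was therefore also set against the summed RPKM of 14 pan-endothelial genes, among them Pecam1 and Cdh5, which encode the junction proteins CD31 and VE-cadherin. That sum was 44.9 to 92.4 in the AdCMV and 330 to 436 in the AdVEGF mice. Esm1 corresponded to 0.461% ± 0.165 of the sum in the AdCMV and 15.0% ± 0.938 in the AdVEGF group (SD, n = 5 each), a 32.5-fold difference. Cd34 went from 0.619% ± 0.155 to 7.95% ± 1.87, and Emcn from 1.72% ± 0.553 to 13.0% ± 1.20 (SD, n = 5 each), ratios of 12.8 and 7.58. How many of all genes tested separate the groups in this ratio was not computed. For Esm1, Cd34 and Emcn the ratio was higher in each AdVEGF mouse. These genes were chosen on this contrast, so their separation is a description only.

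For Plvap and Apln the ranges of the ratio overlapped between the groups. Plvap was 14.04% ± 1.52 of the sum in the AdCMV and 9.74% ± 1.58 in the AdVEGF group (SD, n = 5 each). The ranges, 11.5% to 15.1% and 8.11% to 11.7%, met at 1 mouse of each group, AdCMV replicate 1 and AdVEGF replicate 4. Apln made up 0.135% to 0.393% of the sum in the AdCMV mice and 0.149% to 0.772% with AdVEGF, with the top value in replicate 4 and the 4 others, at 0.217% or less, inside the AdCMV range. Aplnr had 0.203% to 0.417% with AdVEGF and 0 with AdCMV. With Pecam1 alone as the reference, or with the geometric mean of the 14 genes, the log2 differences moved by less than the spread between mice for all 6 genes. These ratios share the contrast on which the genes were chosen and were not tested.

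**Figure D2:**
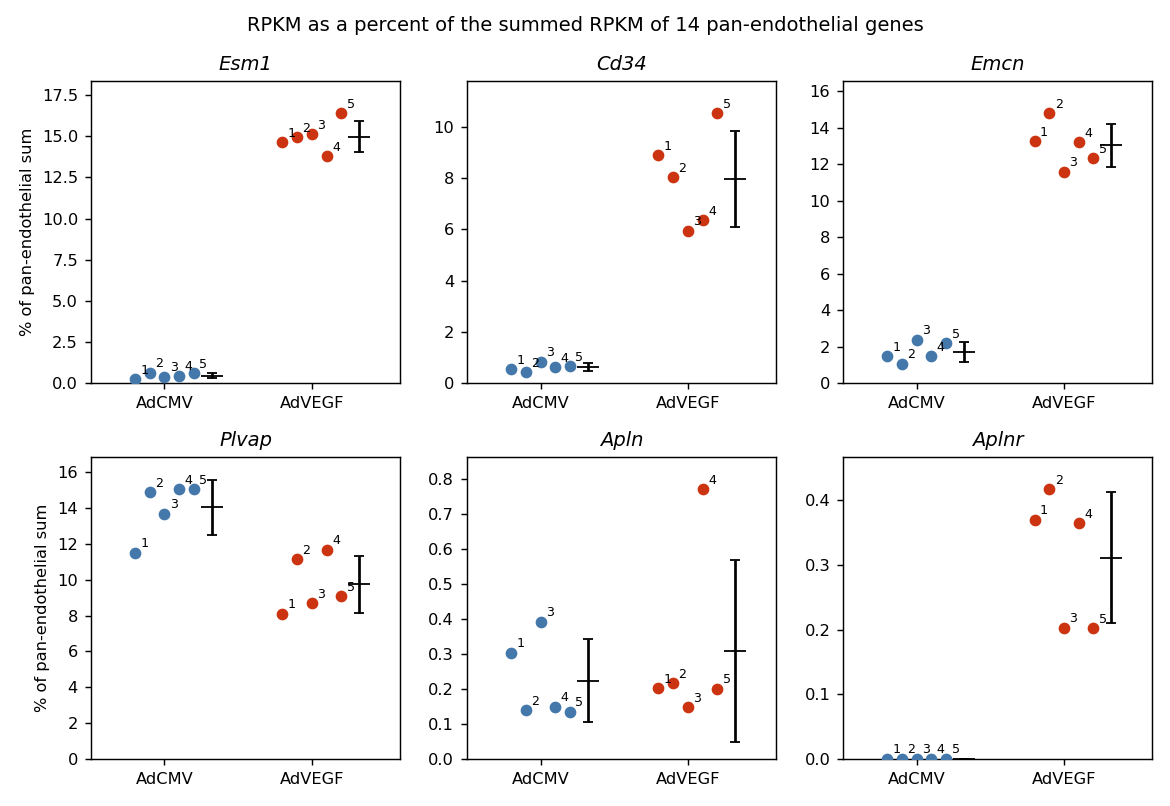
RPKM of each gene as a percent of the summed RPKM of 14 pan-endothelial genes (y axis, from 0, with a scale of its own in each panel) per mouse in the AdCMV and AdVEGF groups, with the mean ± SD. Esm1, Cd34 and Emcn are higher in every AdVEGF mouse, Plvap is 8.11% to 11.7% against 11.5% to 15.1% in AdCMV, and Apln overlaps between the groups apart from AdVEGF replicate 4. The genes were chosen on this contrast, and how many of all genes separate in this ratio was not computed.

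Other genes around these 6 were tested in the fit over all genes, in lists that exclude the 6. The lists were chosen with earlier results of these data known, so their counts are no independent test. A gene was called with a Benjamini-Hochberg adjusted p under 0.05 (limma) and a difference of more than 1 on the log2 scale, up or down. Of the 13933 genes, the 6 included, 13.0% were called higher and 1.54% lower in the AdVEGF group, and after median-ratio scaling 7.62% and 3.21%. Of 24 further tip cell genes, 23 passed the filter and 23 of 23 were called higher, 22 after median-ratio scaling. Their median log2 fold change was 2.61, close to the 2.64 of the 14 pan-endothelial genes, all of which were called, and 5 of the 23 exceeded the largest pan-endothelial value of 3.17.

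Among the tip cell genes, the largest rise was that of Kcne3, a potassium channel subunit (5.21 on the log2 scale with a standard error of 0.31; limma adjusted p = 6.66e-09). Cxcr4, the receptor of the chemokine CXCL12, rose from an RPKM of 0.678 ± 0.380 to 14.3 ± 4.20 (SD, n = 5 each; 4.33 on the log2 scale; limma adjusted p = 1.61e-07). The Notch ligand of tip cells, Dll4, rose from 0.837 to 14.7 (4.14 on the log2 scale; limma adjusted p = 1.27e-07). Kdr, encoding VEGFR2, rose by 2.78, and Pdgfb, the growth factor with which tip cells attract pericytes, by 2.61. Col4a1 and Nid2, components of the basement membrane, rose by 3.06 and 2.54. The smallest rise was that of Angpt2 (1.31; limma adjusted p = 0.0074), and Adm, which encodes adrenomedullin, rose by 1.62 (limma adjusted p = 0.000723; not called with treat, which asks for more than a log2 change of 1, adjusted p = 0.415). Angpt2, which encodes the TIE2 ligand angiopoietin-2, lost its call after median-ratio scaling (0.95), with 1 added before the logarithm (0.75) and with treat (adjusted p = 1). Pgf, which encodes placental growth factor, was not tested, having no read in any AdCMV mouse and 14 reads at most with AdVEGF.

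The 15 continuous capillary genes did not move as 1 block. Of the 11 tested, 8 were called higher and 1 lower (6 and 1 after median-ratio scaling), with a median log2 fold change of 1.55 against 0.38 for all genes. Fabp4, a fatty acid binding protein of capillaries and adipocytes, rose by 4.11 (standard error 0.41; limma adjusted p = 1.77e-06), from 13.8 to 207 RPKM. Gpihbp1, which carries lipoprotein lipase onto the capillary wall, rose by 2.94, from 17.1 ± 2.10 to 133 ± 23.6 RPKM (SD, n = 5 each; limma adjusted p = 1.79e-08). Btnl9 and Aqp1, a water channel, rose by 3.33 and 2.25. Ly6a, which encodes the surface protein Sca-1 of capillary endothelium and of activated lymphocytes, fell by 1.46 (limma adjusted p = 0.000333; not called with treat, adjusted p = 0.583), from 95.3 to 35.3 RPKM. Of 6 T and NK cell markers tested, 4 were called lower, and their part in the Ly6a value was not tested. Car4, Meox2, Tcf15 and Timp4, also known from continuous capillaries, stayed below the filter, with at most 5 reads in any mouse.

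The caveola and diaphragm genes, which act where PLVAP is found, were called higher in 6 of 8 cases, 5 after median-ratio scaling. Their median was 2.04. Ptrf, the cavin-1 gene, rose by 3.18 (limma adjusted p = 1.61e-07) and its partner Cav1, also on the capillary list, by 1.27 (limma adjusted p = 0.00502), the latter not called after median-ratio (0.88) or upper quartile scaling (0.97), with 1 added before the logarithm (0.94) or with treat (adjusted p = 1). Pacsin2, a membrane-bending protein, had a log2 fold change of 0.070 and was not called; it was -0.33 after median-ratio scaling. Within the CD34 family, podocalyxin (Podxl) rose by 3.19 (limma adjusted p = 2.67e-07), from 0.753 ± 0.275 to 7.46 ± 1.52 RPKM (SD, n = 5 each). Podxl2, the third member, was not tested, with at most 2 reads under AdCMV and 2 to 7 under AdVEGF. Mcam, an adhesion molecule of endothelium that is also on the tip cell list, rose by 3.63 (limma adjusted p = 4.2e-07). Selplg, a selectin ligand, and Selp, encoding P-selectin, were not called, with log2 fold changes of 0.51 and 0.42.

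A further list, here the apelin list, held a second ligand of the apelin receptor, protease genes and an angiotensin receptor gene. Of 5 tested, 1 was called lower and 0 higher by limma (also 0 with voom), while 2 were higher and 1 lower at an unadjusted p under 0.05. Apela, which encodes a further peptide ligand of the receptor, was the gene called lower (-2.67 on the log2 scale with a standard error of 0.78; limma adjusted p = 0.0208). Its RPKM was 1.43, 1.15, 18.3, 1.09 and 0.179 in AdCMV replicates 1 to 5, on 10, 15, 140, 10 and 1 reads. In AdVEGF replicates 1 to 5 it was 0.367, 0.278, 0.184, 0.127 and 0, on 2, 2, 1, 1 and 0 reads. Thus 1 control mouse was far above all others, and the groups overlapped. Apela passed the filter only through the AdCMV group, and with so few AdVEGF reads its fitted value depends on the 0.1 added. Without AdCMV replicate 3 the log2 fold change was -1.79 (limma adjusted p = 0.026) and without AdCMV replicate 5 it was -3.30. The call was lost with 1 added before the logarithm (adjusted p = 0.0583) and with treat (adjusted p = 0.399). The proprotein convertase gene Furin, the protease genes Mme and Ece1 and the angiotensin receptor gene Agtr1a were not called, with log2 fold changes of -0.022, -0.41, 0.55 and 0.47.

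The stalk cell and remodeling genes were called higher in 11 of 12 cases (9 after median-ratio scaling), with a median of 2.06. Hey1, Notch4, Ackr1 and Vwf passed the filter of 0.5 RPKM only through the AdVEGF group, which favors a higher value there. Their AdCMV means were 0.058, 0.333, 0.274 and 0.475 RPKM. Hey1, a Notch target, rose by 5.50 (limma adjusted p = 2.32e-09), on no more than 3 reads per control mouse, so that the fitted value depends on the 0.1 added. Vwf, the von Willebrand factor gene, was not called (log2 fold change -0.19). Of the 12 markers of sinusoidal endothelium, 11 were tested and 9 called higher, 7 after median-ratio scaling. Their median was 1.63, below that of the pan-endothelial genes. None exceeded the largest pan-endothelial value. Oit3 rose most, by 2.10 (limma adjusted p = 2.54e-06). Dnase1l3 and F8, a nuclease and coagulation factor VIII, had log2 fold changes of -0.98 and -0.89 and were below the threshold, but were called lower after median-ratio scaling (-1.37 and -1.29).

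**Figure D3:**
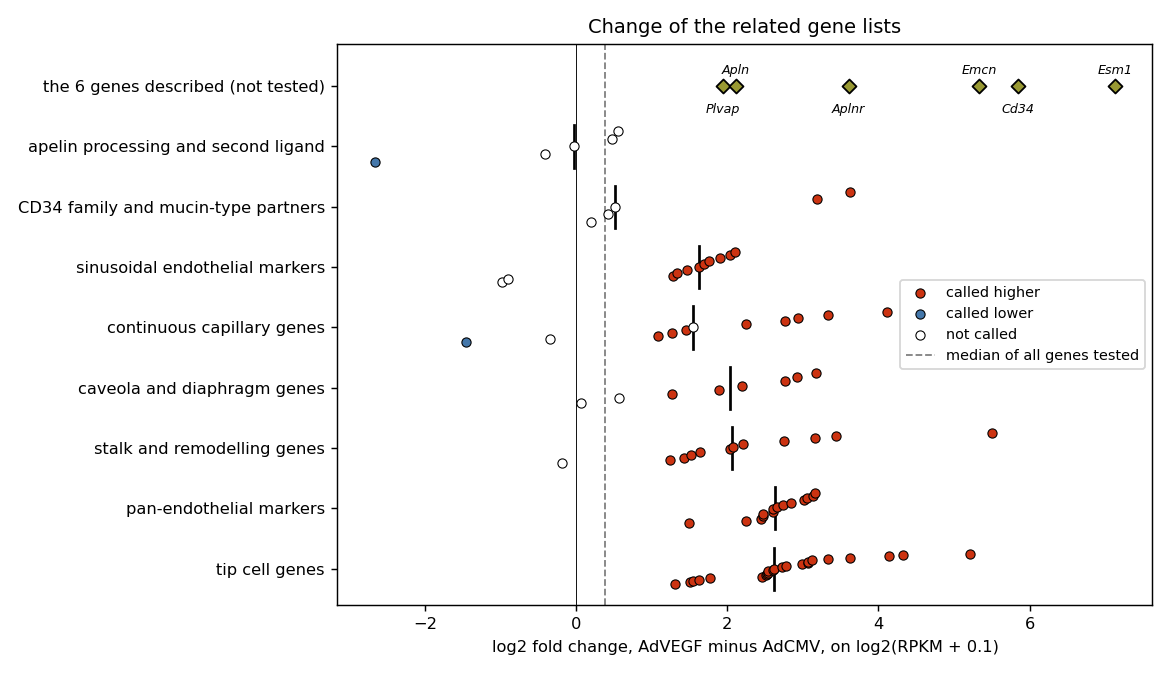
Log2 fold change, AdVEGF minus AdCMV, on log2(RPKM + 0.1) (x axis) of each tested gene of the related lists (rows), with 1 point per gene filled by its call and a black line at the list median. The dashed line is the median of all genes tested (0.38). Diamonds are the 6 genes described, marked as not tested: they were part of the fit, but their p-values were not used. Tip cell and pan-endothelial genes have medians of 2.61 and 2.64, while Esm1 and Cd34 lie to the right of every list gene and Emcn (5.33) to the right of all but Hey1 (5.50).

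CD34 and endomucin are also found on cells other than endothelium, so markers of such cells were measured. Of 9 markers of blood progenitors, 6 were tested and 1 was called higher, Gata2 (log2 fold change 2.21), which endothelium also expresses. Gata2 passed the filter only through the AdVEGF group, with mean RPKM of 0.129 under AdCMV and 0.950 under AdVEGF. The summed RPKM of the progenitor markers was 17.0 to 43.6 in the AdCMV and 24.4 to 39.6 in the AdVEGF mice. Of 8 fibroblast and mesothelial markers, 5 were tested and 1 was called higher, Pdgfra (1.17; 0.82 and not called after median-ratio scaling), with sums of 8.04 to 14.8 and 13.0 to 20.4. All 8 stellate cell markers were called higher, with a median of 1.76 and sums of 23.7 to 42.7 and 81.4 to 144. Of these markers, Hand2 passed the filter only through the AdVEGF group (mean RPKM 0.498 under AdCMV). Lymphatic markers were called in 2 of 4 cases, Lyve1 and Reln, which sinusoidal and stellate cells also express, and Mmrn1 was at 0 in every mouse. Kupffer cell markers were called higher in 2 of 6 cases and cholangiocyte markers in 1 of 4 (Spp1, 3.91). The cholangiocyte sums were 24.2 to 53.7 in the AdCMV and 281 to 726 in the AdVEGF mice. They are mostly Spp1, with mean RPKM of 35.2 and 531, while Krt19, Epcam and Sox9 were not called. Erythroid markers were called in 0 of 4 cases (limma), and also in 0 at an unadjusted p under 0.05. The part of these cells in the values of the 6 genes was not tested.

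Genes with the most similar pattern were sought by the root mean square difference between profiles of log2(RPKM + 0.1) over the 10 mice, each centered on its own mean. Most of a profile is the difference between the groups, so likeness means mainly a difference of like size. Cd34 and Emcn were each other's nearest gene, at 0.37. After Emcn, Cd34 was nearest to Mest, an imprinted gene (0.51), and to Kcne3 (0.54), and Emcn was next nearest to the same genes (0.46 each). Esm1 was nearest to Cd34 (0.76), Hey1 (0.93) and Mest (0.96). Plvap had closer neighbours in Rilpl1 (0.16), Cttnbp2nl (0.17) and Cygb (0.18), the last a globin of stellate cells. Apln was nearest to Fblim1 (0.40), Ctla2a (0.40) and Apoa4 (0.45), and Aplnr to Cib3 (0.28), Rab3b (0.34) and the mechanosensitive channel gene Piezo2 (0.38). Apln and Aplnr were not near each other, at 0.96.

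The mice of a group also differed among themselves. Among the AdVEGF mice, replicate 4 was highest for Emcn, Plvap, Apln and Aplnr, 4 of the 6 genes, and also after median-ratio scaling for 4 of 6. Its pan-endothelial sum, 436, was the highest of the group, and its Vegfa RPKM of 39.4 as well, against 28.3 to 33.1 in the others. Kdr was lowest in this mouse, at 16.0 against 33.4 to 34.4 RPKM in the 4 others, and so was Cxcr4 at 9.17 against 12.1 to 20.1. Angpt2 was highest there, at 3.01 against 1.52 to 1.91, and Vwf was 1.55 against 0.163 to 0.337. Apln thus stood high in the mouse in which Angpt2 and Vwf were high and Kdr and Cxcr4 low. Among the AdCMV mice, replicate 3 was highest for 4 of the 5 genes with reads and for 2 of 5 after median-ratio scaling, which lowers the values of this library.

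**Figure D4:**
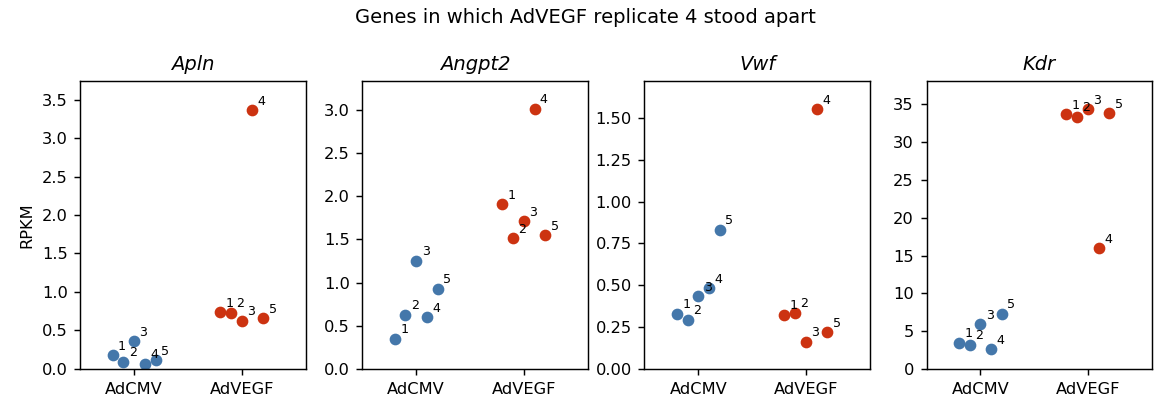
RPKM (y axis, from 0) of Apln, Angpt2, Vwf and Kdr in each AdCMV and AdVEGF mouse, numbered by replicate. AdVEGF replicate 4 lies above the rest of its group for Apln (3.36), Angpt2 (3.01) and Vwf (1.55) and below it for Kdr (16.0).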

How the data were processed

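Liver RNA of 5 AdCMV and 5 AdVEGF mice was analyzed. The reads were mapped with TopHat to mm9 (HOMER is also named in the submitters' processing notes), and the authors deposited RPKM per RefSeq transcript, scaled to the uniquely mapped tags of each library. How reads shared between transcripts were counted is not given in the sources used here. The log2 ratios and FDR-type p-values of the comparison the authors deposited were not used. Reads and totals were recovered from the steps of the RPKM values (at least 99.9% whole within 0.05 reads or the rounding of the value, checked on simulated data). Rows without a symbol (5) were left out.

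Tested were all genes whose mean passed 0.5 RPKM under AdCMV or AdVEGF, by limma (version 3.58.1, R 4.3.3, eBayes with a trend) on log2(RPKM + 0.1), as RPKM values are not counts, with Benjamini-Hochberg adjustment over all genes. Thresholds on FDR, RPKM and fold change are those of the study's main methods. The test is not given in the sources used here. The fit was tested on simulated data. The 6 genes, the lists and the tests were chosen with earlier results of these data known. Named were the 6 genes, in each list the largest and smallest change and genes with a direct role beside the 6, genes called lower, and the 3 nearest genes by profile. Genes named beyond this rule, such as F8, Gpihbp1, Btnl9, Aqp1, Col4a1, Nid2, Selp and the markers of other cells, were chosen after their values were seen. A few items that the rule names are not reported here. The labels call the mice biological replicates. Alternatives were 2 other scalings, 2 pseudocounts (1 and 0.01), 2 filters, treat, voom on the recovered reads, a replicate block and the omission of single mice. Summaries and figures were made in Python 3.11.15 (numpy 2.4.6, pandas 2.3.3).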

Additional observations from a re-analysis of the deposited data

Results flagged for a closer look

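In all, 6 values lay apart from the 4 other mice of their group by Dixon's criterion (gap over range above 0.71), among 58 groups of 5 that were examined, where chance flags about 1 in 20. AdVEGF replicate 4 accounted for 4 of them. Its Apln RPKM was 3.36 against 0.625 to 0.736 in the others, its Angpt2 3.01 against 1.52 to 1.91, and its Vwf 1.55 against 0.163 to 0.337. Its Kdr RPKM was 16.0 against 33.4 to 34.4. AdVEGF replicate 3 had an Mcam RPKM of 27.7 against 22.1 to 23.6. AdCMV replicate 3 had an Apela RPKM of 18.3 against 0.179 to 1.43. The cause of these values was not tested.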

How the results depend on the processing

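The log2 fold changes of the 6 genes stayed above 0 under every alternative listed, the direction in which they were chosen. Of these values, 106 moved by less than the spread between mice and 8 by more. The 106 include values that cannot move, since treat, the replicate block and the 2 filters leave the log2 fold change of a gene as it is. Aplnr, with 0 reads in the AdCMV group, also cannot change when an AdCMV mouse is left out. Adding 1 before the logarithm gave log2 fold changes of 5.44 for Esm1, 4.40 for Cd34, 4.52 for Emcn, 0.82 for Apln and 1.10 for Aplnr. Aplnr was 6.81 with 0.01 added and 6.12 with voom, since it had 0 reads in the AdCMV group. Plvap was 1.54 after median-ratio scaling. The genes called higher numbered 1808, against 1052 with median-ratio scaling, 1172 with upper quartile scaling, 954 with 1 added and 503 with treat, and 1425 to 2357 when each mouse was left out (lowest without AdCMV replicate 4, highest without AdCMV replicate 3). With voom on the recovered reads they numbered 1993, and 215 were lower. The genes called lower numbered 214, against 443 and 356 with the scalings and 36 with treat, and 178 to 225 when each mouse was left out. With treat, 7 stalk and remodeling genes, 5 continuous capillary genes and 3 sinusoidal markers were called higher. Of the continuous capillary genes and the apelin list, 0 were called lower with treat. With 1 added, 0 genes of the apelin list were called lower. Of the sinusoidal markers, 2 were called lower with median-ratio and 2 with upper quartile scaling, and 0 to 1 when a mouse was left out. Dnase1l3 was called lower without AdCMV replicate 2 (-1.05), AdCMV replicate 4 (-1.07), AdVEGF replicate 1 (-1.04) or AdVEGF replicate 3 (-1.03). Pacsin2 was -0.33 and -0.24 with the scalings, -0.11 without AdCMV replicate 4 and -0.0020 without AdVEGF replicate 4 (-0.11 to 0.27 over all mice left out in turn). Vwf was 0.0049 without AdCMV replicate 5 and 0.031 without AdVEGF replicate 3 (-0.30 to 0.031). Neither gene was called under any of these settings. With the replicate block, 1933 genes were higher and 256 lower. The labels do not say whether same-numbered mice share anything beyond the number. Their deviations correlated at 0.0076 to 0.29 across genes, and 3 of 5 AdCMV mice correlated best with their own number. Whether they were paired was not tested. Low values are limited by depth, since 3 reads on 1 kb correspond to 0.222 to 0.536 RPKM. Where a cause is not shown by the setting itself, the cause was not tested.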
